A study of Caenorhabditis elegans with 2 samples.

Results

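Of the 2285 reproducible ChIP-seq peaks of tagged NHR-77 in young Caenorhabditis elegans, 258 lay inside introns on the 5 autosomes, away from the promoter window at the start of every protein-coding gene. NHR-77 is a nuclear hormone receptor, fused here to the fluorescent protein eGFP and immunoprecipitated from whole L1 larvae, and the DNA that came with it was sequenced (ChIP-seq). Both sexes were pooled, and all larvae came from strain OP353, in which the mutation unc-119(tm4063) on chromosome III is combined with wgIs353, an insertion of the tagged nhr-77. The 2 biological replicates form a single group, and the control library was not analysed here. The labels name no promoter for the tagged gene and no tissue in which it is made, and in whole larvae a site used in few cells cannot be told apart from a site weakly used in many.

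An intronic peak was taken when its summit lay in a protein-coding gene but in no exon of any gene, outside the windows from 1000 bp upstream to 250 bp downstream of all protein-coding gene starts, and over 250 bp from every start of a tRNA, snoRNA or snRNA gene. The deposited signal entered this rule only through the reproducible set, in which no autosomal peak had a signal under 58.7. The median signals given below thus compare peaks above the same floor. The 258 peaks were 13.8% of the 1865 autosomal reproducible peaks (exact 95% interval 12.3 to 15.5%). The other autosomal peaks were 1092 at promoters, 316 between genes, 169 in exons and 30 in introns beside small RNA genes, and 56 peaks of the X chromosome were intronic in the same sense. The autosomal sequence that the rule could take, called eligible intron sequence here, was 24.5 Mb, or 29.7% of the autosomes, so a share of these 24.5 Mb is the yardstick for each position described. Peak lists hold no read totals, so the depth is unknown, and all intervals cover counting error only.

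Introns are removed from the transcript, but their DNA can hold enhancers and the promoters of shorter transcripts of the same gene. In the nematode most introns are very short, and the long ones are often the first of a gene, where regulatory elements have been described. Nuclear hormone receptors form an unusually large family in this animal and bind DNA through a pair of zinc fingers, classically at half-sites that contain the letters AGGTCA. Repeats of the dinucleotide GA, read as CT on the other strand, are common in regulatory DNA of animals. They have been described in worm regions to which many unrelated factors were mapped.

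The letters under the strongest intronic peaks show the sequence feature that most of these peaks shared, the hexamer GAGAGA on either strand. Each stretch of 70 bases below comes from the ce11 genome of RefSeq (WBcel235), runs 5′ to 3′ on the coding strand of the host gene, and lies at the hexamer nearest the summit, or at the summit where there was none within 100 bp of it. Capitals mark GAGAGA or its reverse complement TCTCTC. The 8 stretches cover chrIII:12612725-12612794 in Y111B2A.12, chrII:14040368-14040437 in daf-5, chrIII:8802149-8802218 in zfp-1, chrIII:833829-833898 in zip-2, chrV:6224674-6224743 in W06H8.6, chrII:255310-255379 in scc-2, chrIV:5657199-5657268 in skn-1 and chrIII:5014119-5014188 in larp-1.
Y111B2A.12: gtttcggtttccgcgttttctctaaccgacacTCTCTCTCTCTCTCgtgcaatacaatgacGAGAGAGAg
daf-5: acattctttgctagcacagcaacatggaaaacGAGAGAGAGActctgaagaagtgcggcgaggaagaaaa
zfp-1: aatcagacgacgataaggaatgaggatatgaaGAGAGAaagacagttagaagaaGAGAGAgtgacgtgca
W06H8.6: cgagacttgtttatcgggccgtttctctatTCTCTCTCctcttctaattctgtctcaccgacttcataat
skn-1: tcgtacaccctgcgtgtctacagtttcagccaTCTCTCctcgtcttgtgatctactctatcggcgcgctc
larp-1: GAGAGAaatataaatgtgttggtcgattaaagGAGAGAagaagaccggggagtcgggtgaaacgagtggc
zip-2: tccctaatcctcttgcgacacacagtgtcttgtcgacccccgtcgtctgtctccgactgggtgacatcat
scc-2: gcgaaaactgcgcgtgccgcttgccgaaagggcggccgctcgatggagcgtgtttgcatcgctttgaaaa
The first 6 hold the hexamer, on the coding strand as GA or as CT. The stretch of Y111B2A.12 shows both, but its GA copy lies over 100 bp from the summit, so this peak is counted as CT only. The peaks of zip-2 and scc-2 hold none, and both lay just upstream of an alternative transcript start, as given further on.

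The strongest intronic peak lay in the fourth intron of Y111B2A.12, with its summit at chrIII:12612668. Its signal, a value per peak that the authors deposited and that can order the peaks of a list but has no stated scale, was 409 in the reproducible set, 214 in the list of replicate 1 and 191 in that of replicate 2. The next was in the first intron of daf-5, the Ski/Sno homologue that acts in the TGF-beta pathway of dauer formation, with signals of 398 in the set, 220 in replicate 1 and 174 in replicate 2. These peaks stood 32nd and 37th among all reproducible peaks and were high in both replicates. A peak in the ninth intron of zfp-1, which encodes a chromatin protein related to AF10, had a signal of 299, with 167 in replicate 1 and 124 in replicate 2. Of the 258, those 3 were among the 100 strongest of all 2285 peaks and none was among the 25 strongest, and 2 of the 56 intronic peaks of X were also among the 100.

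Further peaks of high signal lay in zip-2, which encodes a bZIP transcription factor of the infection response (269, with 175 in replicate 1 and 96.4 in replicate 2), and in W06H8.6 (252, with 141 and 125). They lay in epg-9, an autophagy gene related to ATG101 (241, with 115.8 and 121), and in scc-2, the loader of cohesin (235.2, with 142 and 92.1). They also lay in skn-1, the Nrf-related regulator of the oxidative stress response and of endoderm fate (222, with 102 and 111), and in larp-1, which encodes a La-related RNA-binding protein (219, with 122 and 90.1). Each of these was among the 2285 strongest peaks of both replicates. The other hosts of the 20 strongest intronic peaks were pqn-41, Y43F8B.2, T24B8.3, the ubiquitin ligase adaptor gene spop-1, the kinase gene mnk-1, the SWI/SNF subunit gene pbrm-1 and K11D2.4, with highest signals of 226, 219, 207, 202, 197, 197 and 197 in that order.

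Over all 258 peaks the signal ran from 58.7 to 409 with a median of 88.3 (exact 95% interval 85.3 to 96). The median was 96.3 (92.2 to 100.4) for autosomal promoter peaks and 89.3 (85.3 to 95.3) for autosomal intergenic peaks. The intervals of the intronic and intergenic medians cover nearly the same range, and that of promoters overlaps the intronic one. The intronic share of autosomal peaks was lower among strong than among weak ones. Along the pooled list it was 10.8% of the 250 strongest peaks (27 of 250), 15.3% of the last 365 peaks of the reproducible range, and 29.5% of the 3906 weakest, while promoters took 70.8%, 57% and 27%. The weakest share is close to the 29.7% of autosomal bases that are eligible.

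Both replicates held most of the intronic peaks among their strongest. The 2285 strongest peaks of replicate 1 overlapped 219 of the 258 (84.9%, interval 79.9 to 89%), against 88.8% of all autosomal reproducible peaks. Those of replicate 2 overlapped 214 (82.9%, 77.8 to 87.3%), against 84% of all autosomal peaks. Both shares are near those of all autosomal peaks, and their intervals reach or nearly reach them. In all, 183 intronic peaks were overlapped in both replicates (70.9%, 65.0 to 76.4%), against 74.2% of all autosomal peaks. In neither replicate were 8 overlapped (3.10%), against 27 of all 1865 autosomal peaks (1.45%). All 258 were overlapped by some peak of the relaxed list of replicate 1, and 257 by one of replicate 2. Of all 1865 autosomal peaks these lists overlapped 1865 and 1859. The set was chosen from these 2 replicates, so much of this overlap is built in. The Spearman correlation of the 2 replicate signals was 0.572 over the intronic peaks and 0.738 over the promoter peaks, a description across peaks of the same 2 libraries.

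**Figure D1:**
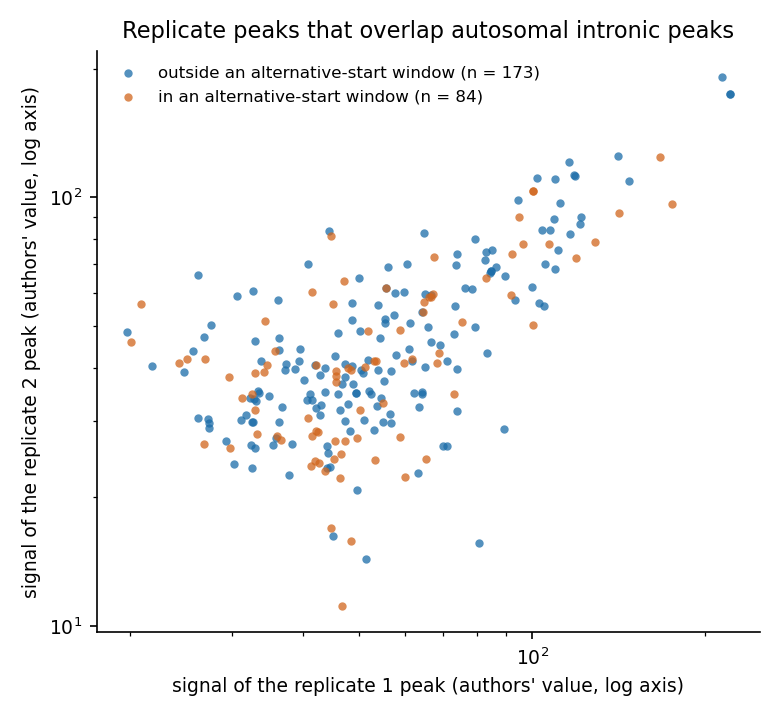
Signal of the replicate 1 peak (x axis) and the replicate 2 peak (y axis, both log scale, authors' values) that overlapped each autosomal intronic peak, coloured by whether the summit lay in the window of an alternative transcript start. The peaks of Y111B2A.12 and daf-5 stand alone at the upper right, and the low replicate 2 values at the bottom include rab-3 at 11.1.

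Among the peaks that were weak in both replicates, that of cct-5, a chaperonin subunit gene, had signals of 29.4 in replicate 1 and 27 in replicate 2. The others of the 5 highest in this group were in myrf-1, a membrane-bound transcription factor gene, marc-5, exc-5 and scpl-1, with 30.3 to 33.2 in replicate 1 and 23.4 to 28.1 in replicate 2. At the low end of the set, a peak in W05B5.1 with a signal of 58.9 had 43.1 in replicate 1 and no peak at all in replicate 2. The peak in pyk-1, a pyruvate kinase gene, was the last of the whole set at 58.7, with 25.7 in replicate 1 and 43.9 in replicate 2. Of the 3 lowest, the remaining 1 was in Y111B2A.12, which also held the strongest.

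Long introns held most of these peaks. The intron around a summit had a median length of 3395 bp (exact 95% interval 2960 to 4363, range 136 to 19927), whereas the median eligible base lay in an intron of 974 bp. Introns over 5000 bp held 106 peaks (41.1%, 35 to 47.4%) in 11.8% of the eligible bases, which is 36.6 peaks per Mb against 10.5 over all introns. Introns of up to 500 bp held 18 peaks in 27.1% of the bases, or 2.71 per Mb. Between these ends the density was higher in each longer class, at 4.66, 7.45 and 17.2 per Mb. Of the 73481 distinct eligible introns 209 held a peak, or 0.284%, and of the 594 over 5000 bp 67 did (11.3%, 8.85 to 14.1%).

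The longest of these introns was an intron of 19927 bp in Y48C3A.5, with neighbouring peaks of 136 and 66.9 that overlap each other. An intron of 18615 bp in crh-1, the CREB gene, held a peak of 75.2 (43 in replicate 1 and 32.9 in replicate 2). An intron of 18310 bp in hmr-1, the classical cadherin gene, held one of 75.5 (27.6 and 50.5). The highest of these signals, 136, stood 51st among the 258.

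**Figure D2:**
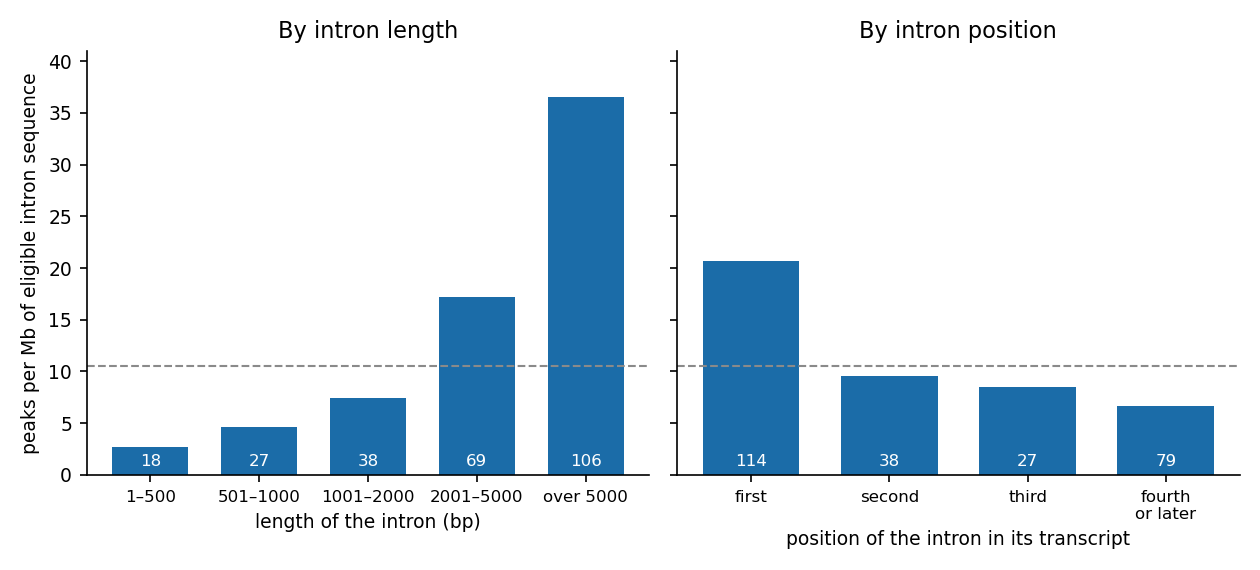
Autosomal intronic peaks per Mb of eligible intron sequence (y axis) by the length of the intron in bp (left) and by its position in the transcript (right), with the number of peaks printed in each bar and the density over all introns, 10.5 per Mb, as a dashed line. Density was 2.71 per Mb in the shortest and 36.6 in the longest class, and 20.7 per Mb in first introns.

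First introns held 114 of the 258 peaks (44.2%, 38 to 50.5%) in 22.5% of the eligible bases, a density of 20.7 per Mb. Each intron was numbered in the longest transcript that has it, so some are first only in a transcript from an alternative start. Numbered in the longest transcript of the host, first introns held 38.3% of the peaks in its introns, close to the lower end of that interval. The share of bases was not recomputed that way. Second introns held 38 peaks (9.60 per Mb), the third 27 (8.50 per Mb) and later ones 79 (6.70 per Mb, 30.6% of the peaks in 48.1% of the bases). First introns are also often long, so the positions were compared again within introns over 2000 bp. There the density was 33.8 per Mb in first, 22.8 in second and 19.5 in later introns (87, 24 and 64 peaks). The order was the same, with a smaller gap.

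Summits kept away from exons. Of the 258, 7 lay within 100 bp of an exon (2.71%, 1.10 to 5.51%), where 31.1% of the eligible bases lie, and the median distance to an exon was 826.5 bp against 212 bp for eligible bases. Within introns over 2000 bp no summit lay in the 0.305 Mb nearest to exons, and 154 lay in the 5.23 Mb over 500 bp away, or 29.4 per Mb. A count of 0 in 0.305 Mb allows a density of up to 9.83 per Mb (3 counts), which is under 29.4. From the annotated start of the host gene the summits were 296 to 40140 bp downstream, with a median of 4476 bp. At the edge of the rule, the peaks closest outside a promoter window were those of wht-3 (5 bp, signal 66.0), ell-1 (14 bp, 96) and ssup-72 (46 bp, 66.0), and intronic summits just inside one, which were not taken, were those in unc-73 (1 bp, 77.8), T28F4.4 (28 bp, 62.2) and daf-15 (34 bp, 64.8).

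Many of these introns contain the start of a shorter transcript of the same gene. An alternative start was taken as the annotated 5′ end of a protein-coding transcript over 250 bp from the start of its gene, with the same window as a promoter. That window held 84 peaks in 78 hosts (32.6%, 26.9 to 38.6%), and 11.1% of the eligible bases, so its density was 31.0 per Mb against 7.98 outside. Within introns over 1000 bp, where both kinds of sequence are long, it was 34.9 per Mb in the windows and 15.04 outside. The remaining 174 peaks, 67.4% of all, lay in no such window.

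Most of the window lies before the start, and so did most of its peaks. Of the 84, 82 were upstream of the host's nearest alternative start, as was 88.8% of the eligible sequence within these distances of a nearest start. The window thus favours upstream positions, also for the median position of -304.5 bp. Per Mb of eligible sequence the upstream side still held more, at 35.3 peaks against 3.43 downstream, the latter from 1 peak. Within 250 bp of the start lay 36. The density was highest in the 250 bp just upstream, at 51.3 per Mb (35 peaks in 0.683 Mb). In the 250 bp just downstream it was 3.43 per Mb (1 peak in 0.292 Mb). Less eligible sequence is left downstream, where the first exon of the shorter transcript begins, but a density per Mb already allows for that. The cause of the low value was not tested. Further upstream the density stayed between 24.2 and 37.3 per Mb out to 2000 bp, so the high density was not limited to the nearest 250 bp.

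**Figure D3:**
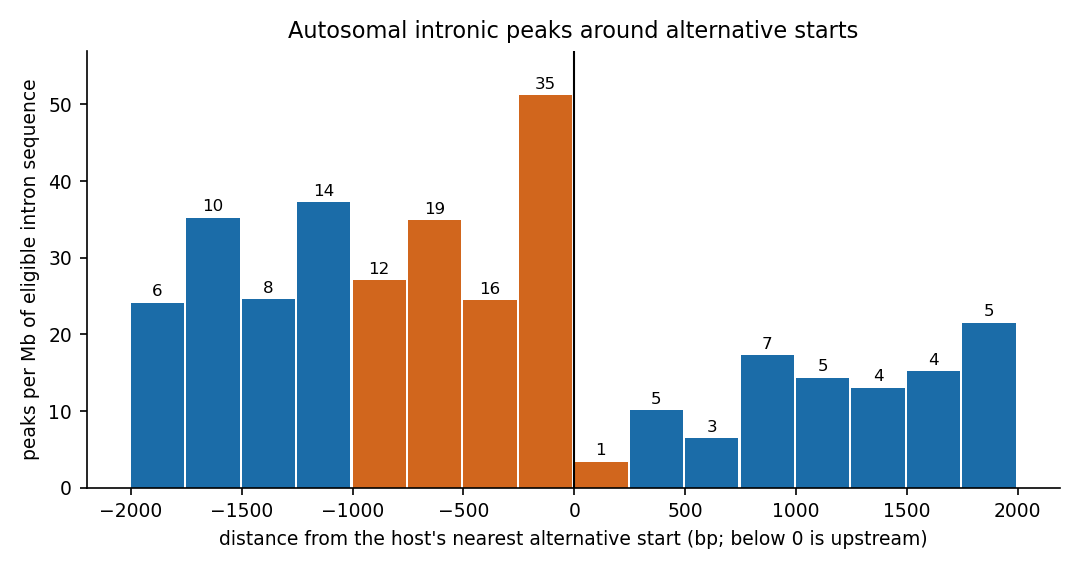
Autosomal intronic peaks per Mb of eligible intron sequence (y axis) by distance in bp from the nearest alternative start of the host gene (x axis, negative values upstream), in steps of 250 bp with the number of peaks above each bar. Orange bars lie within the window of 1000 bp upstream to 250 bp downstream, and the bar just upstream of the start, with 35 peaks, is the highest.

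Among the strongest peaks in such windows, that of zip-2 lay at -224 bp and that of scc-2 at -149 bp from an alternative start, negative values being upstream. In zfp-1 the peak of 299 lay at -649 bp from one of 7 alternative starts. The peak of T24B8.3 (207, with 128 in replicate 1 and 78.5 in replicate 2) lay at -464 bp, and that of pbrm-1 (197, with 100.4 and 103.4) at -868 bp. All 5 were among the strongest peaks of both replicates. The median signal was 85.8 (75.6 to 94.2) in the windows and 91.7 (85.6 to 99.4) outside, with overlapping intervals. The strongest peaks of replicate 2 overlapped 72.6% of the peaks in the windows and 87.9% of the others, while for replicate 1 the shares were 84.5% and 85.1%, so the difference was seen in 1 library only.

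Most hosts had an annotated alternative start, with a median of 2 per host against 0 in the eligible genes without a peak. At least 1 alternative start was annotated in 153 of the 182 hosts (84.1%, 77.9 to 89.1%) and in 21.8% of the eligible genes without a peak. Among genes with over 2000 eligible bp the shares were 87.4% and 42.2%, so the gap was smaller between genes with more intron sequence. Hosts of this size still had more of it, with a median of 8548 eligible bp against 3749 in the genes without a peak. The window of the host's own first start held a reproducible peak in 30 hosts (16.5%, 11.4 to 22.7%), against 7.72% of all 11771 eligible genes. With over 2000 eligible bp it was 13.2% (8.28 to 19.7%) of hosts and 9.59% of other genes, whose intervals overlap. For 152 of the 182 hosts the intronic peaks thus had no reproducible peak at the gene's own first start beside them. A start of some non-coding gene lay within 250 bp of 25 summits (9.69%, 6.37 to 14%), where 5.89% of the eligible bases lie.

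The 258 peaks fell in 182 genes, 1.55% of the 11771 autosomal protein-coding genes with at least 200 eligible bp. Of these hosts 140 held 1 peak, 28 held 2 and 14 held 3 or more, and those 14 held 62 of the peaks (24.0%). The gene with the most was daf-5, with 11 peaks over 17510 bp, 9 of them in its first intron of 14446 bp. Their signals were 398, 227, 211, 132, 110, 98.7, 96.9, 95.9, 82.1, 77 and 75.6, and the peaks of 398 and 132 overlap each other, with summits 199 bp apart. The forkhead gene fkh-7 held 7 peaks between 67.0 and 161, and zfp-1 held 6 between 64.5 and 299. Y111B2A.12 held 5 between 58.7 and 409, all in 1 intron, and pqn-41 held 4 between 122 and 226. Neighbouring peaks of a gene may not be independent sites: 65 of the 258 had another within 2000 bp, and 5 neighbouring pairs overlapped.

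**Figure D4:**
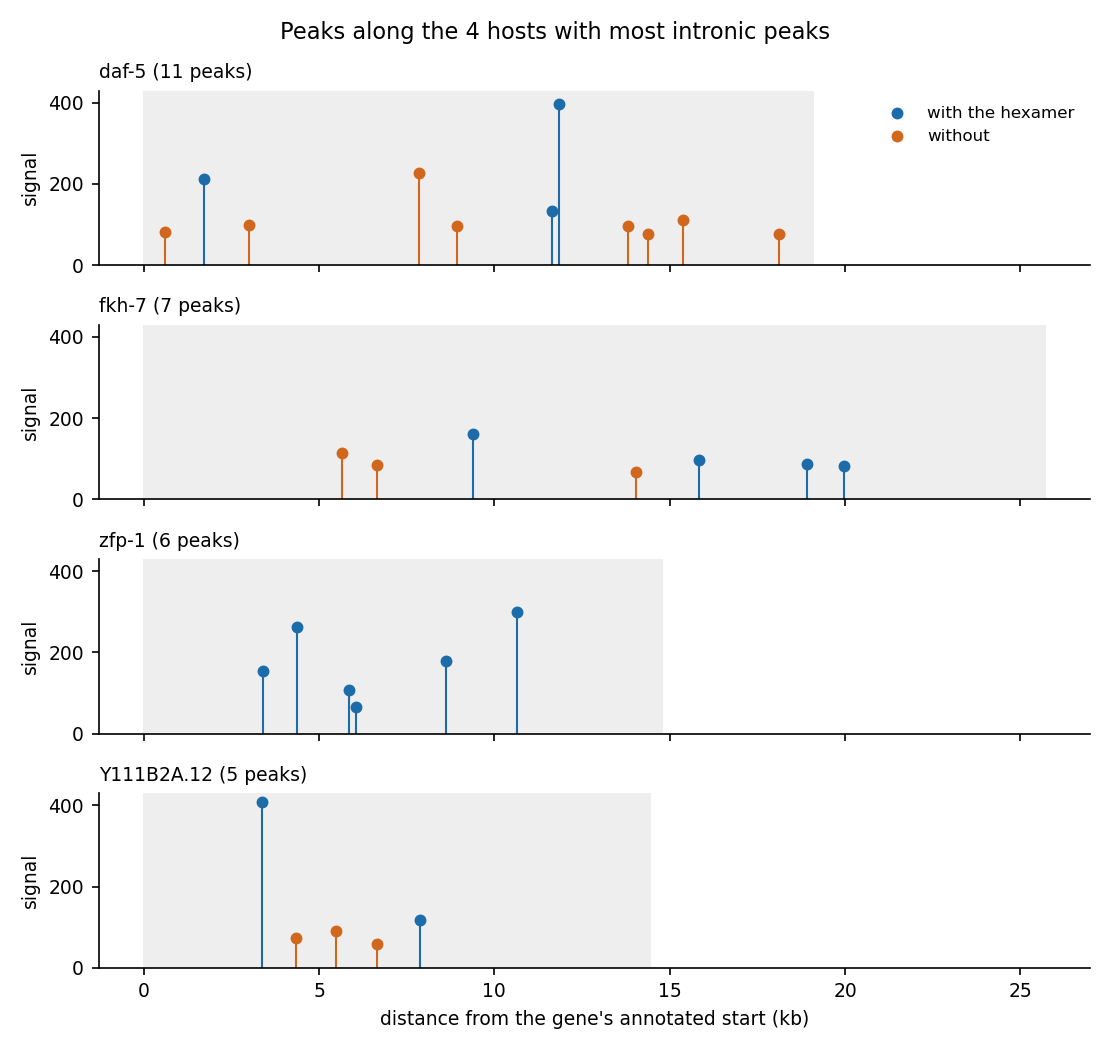
Signal (y axis, authors' value) of each autosomal intronic peak by its distance in kb from the annotated gene start (x axis) in the 4 hosts with most peaks, with the gene's length shaded and colour showing whether GAGAGA occurred within 100 bp of the summit. In daf-5 the 11 peaks are spread along the gene and 3 of them hold the hexamer, whereas all 6 of zfp-1 do.

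The share of hosts differed between lists of genes with related functions. Neither the shares nor the densities allow for intron length, by which the density ran from 2.71 to 36.6 per Mb, and its part was not tested. In a list of transcription factors other than homeobox genes and nuclear hormone receptors, 16 of 146 eligible genes were hosts (11%), with 28 peaks at 53.1 per Mb, against 1.55% and 10.5 per Mb over all eligible genes. Besides zip-2, skn-1, fkh-7 and crh-1 they included the FOXO gene daf-16 and the TFEB-related gene hlh-30. Of the chromatin regulators 5 of 92 were hosts (5.43%, 1.79 to 12.2%, 47.3 per Mb), namely zfp-1, pbrm-1, nurf-1, let-526 and athp-1. Without zfp-1, which held 6 of the 12 peaks, the density was 24.4 per Mb. Of the intracellular signalling genes 14 of 134 were hosts (10.4%, 5.83 to 16.9%). Their density was 34.7 per Mb, and 21 per Mb without daf-5, which held 11 of the 27 peaks. The highest signals were those of daf-5 and mpk-1, the ERK gene. The mpk-1 peak had 184, with 111 in replicate 1 and 75.3 in replicate 2.

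Muscle structure genes were hosts in 7 of 38 cases (18.4%, 7.74 to 34.3%, 37.2 per Mb). They included myo-5, a myosin heavy chain gene (132, with 56.1 in replicate 1 and 68.8 in replicate 2), and unc-87, whose product binds actin (106, with 65.2 and 40.3). Among the nuclear hormone receptor genes themselves 6 of 221 were hosts (2.71%, 1.00 to 5.82%, an interval that holds the 1.55% of all genes, at 25.6 per Mb), nhr-19, nhr-46, nhr-34, nhr-7, nhr-59 and nhr-21. The peak of nhr-19 had a signal of 191 (107 in replicate 1 and 84.1 in replicate 2), and nhr-46 held a pair of peaks of 153 and 139. Of 48 eligible RNA-binding and splicing regulators 2 were hosts (4.17%, 0.509 to 14.3%, which also holds the share of all genes), larp-1 and asd-2, a gene of the STAR family whose peaks of 144 and 106 both lay before alternative starts.

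In 4 further lists the exact interval of the host share held the 1.55% of all eligible genes. Of the adhesion, matrix and axon guidance genes 3 of 76 were hosts (3.95%, 0.822 to 11.1%), at 5.18 per Mb, among them hmr-1 and the L1CAM-related gene sax-7 (77.1). Of the genes of neurotransmission and synaptic vesicles 2 of 92 were (2.17%, 0.264 to 7.63%), the serotonin transporter gene mod-5 (82.6) and rab-3 (58.9). For rab-3 the replicates differed, with 46.6 in replicate 1 and 11.1 in replicate 2. The homeobox genes had 1 host of 61 (1.64%, 0.0415 to 8.80%), ceh-22 of the pharyngeal muscle (63.3), and the ribosomal protein genes 1 of 6 eligible (16.7%, 0.421 to 64.1%), rpl-19 (68.8). No host was among 182 eligible ion channel genes, which allows a share of up to 2.01% (exact). By this count of genes the share cannot be told from the 1.55% of all genes. By sequence, ion channel genes held 0 peaks in 0.671 Mb, against 10.5 per Mb over all eligible genes. No host was among 1018 chemoreceptor genes, which allows up to 0.362%. These genes have 0.820 Mb of eligible sequence, with 0 peaks, where all 11771 eligible genes have 24.6 Mb. Neither the share nor the density allows for intron length, and introns of up to 500 bp held 2.71 peaks per Mb over all genes. Neither nhr-77, the tagged gene, nor unc-119 held an intronic peak or a reproducible summit up to 1000 bp upstream.

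By chromosome, 56 intronic peaks lay on I, 55 on II, 64 on III, 53 on IV and 30 on V. Chromosome V had the lowest density, 5.75 per Mb of eligible sequence, against 10.4 to 13.5 on the others, and the lowest share of its own reproducible peaks in introns (9.12%, 6.24 to 12.8%). With each chromosome cut into 3 parts of the same length, the middle parts had 15.7 per Mb and the outer parts 8.62, and the middle was denser on each of the 5 autosomes.

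The DNA around these summits was rich in G and C for an intron. In windows of 200 bp the median GC content was 45.5% (44.5 to 46.5%), against 41% at autosomal promoter peaks and 32% in windows tiled over all eligible introns. In the 100 bp nearest the summit intronic and promoter peaks had the same median, 46%, so only the contrast with introns at large was seen at both widths. The letters GAGAGA, sought on both strands, occurred in the windows of 163 intronic peaks (63.2%, 57 to 69.1%). They occurred in 34% (31.2 to 36.9%) of the promoter peaks, in 11.3% of all promoter windows, and in 8.14% of all eligible intron windows. Introns of over 1000 bp held them in 9.83% of windows, and windows of a GC content between 41.5 and 49.5%, the middle range of the intronic peaks, in 16.4%. Autosomal intergenic peaks had 64.9% (59.3 to 70.1%), so the hexamer did not set intronic peaks apart from other peaks away from promoters. Autosomal exonic peaks had 44.4%. On X, intronic peaks had 50% (36.3 to 63.7%) and promoter peaks also 50% (42.6 to 57.4%), so the contrast with promoter peaks was seen on the autosomes only.

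The repeats lay near the summits. In the 163 peaks the median distance from the summit to the nearest hexamer was 27 bp, and in 122 it was at most 50 bp. A run of at least 12 bp of alternating GA or CT occurred in 39 peaks (15.1%, 11 to 20.1%) and in 0.455% of eligible intron windows, or 1.60% of those of similar GC content, and the longest had 68 bp. Autosomal intergenic peaks had such a run in 11.4% (8.11 to 15.4%), an interval that overlaps that of the intronic peaks. On the coding strand of the host, 93 of the 163 had only CT, 41 only GA and 29 both (57.1, 25.2 and 17.8%). Among eligible intron windows with the hexamer the shares were 55.1, 40.1 and 4.77%, so windows with both orientations were more frequent at the peaks.

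**Figure D5:**
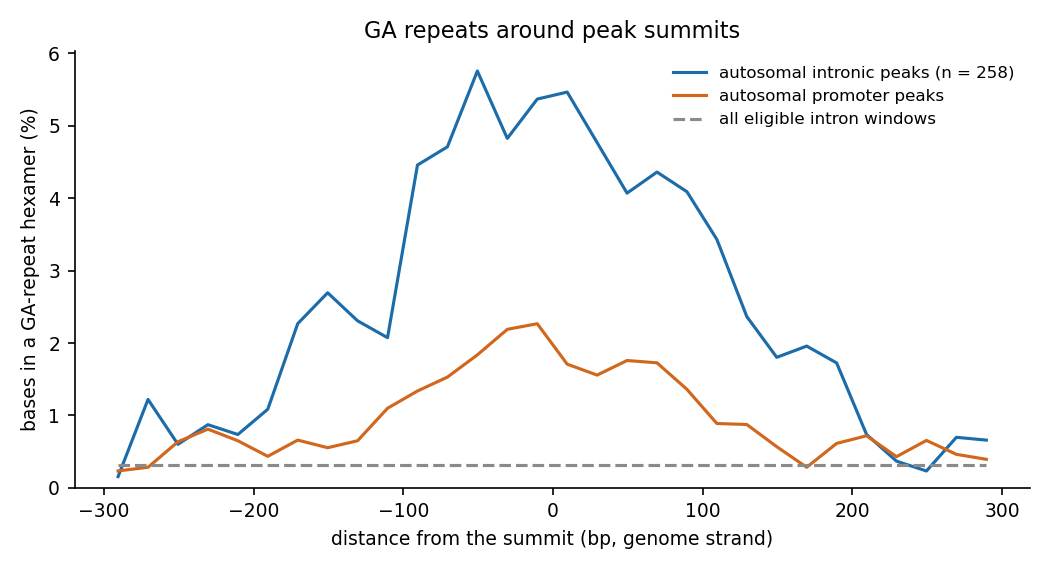
Percentage of bases that lie in GAGAGA or its reverse complement (y axis) by distance from the summit in bp (x axis, steps of 20 bp) for autosomal intronic peaks, autosomal promoter peaks, and the mean over all eligible intron windows. Intronic peaks reach 5.76% near the summit, promoter peaks 2.27%, and the mean of intron windows is 0.321%.

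Peaks with the hexamer had the higher signals. Their median was 96.4 (88.7 to 106), against 77.6 (72.7 to 85.8) in the 95 peaks without it, and these intervals do not overlap. The peaks with it also had a higher median GC content (47% against 44%) and longer introns (median 4213 against 2756 bp). The part of either in the signal was not tested. Peaks with the hexamer made up 40 of the 50 strongest and 24 of the 50 weakest intronic peaks. The strongest peaks of replicate 1 overlapped 89.6% (83.8 to 93.8%) of those with it and 76.8% (67.1 to 84.9%) of those without. For replicate 2 the shares were 85.9% (79.6 to 90.8%) and 77.9% (68.2 to 85.8%). The intervals overlap in each replicate. Being among the strongest peaks is itself set by signal, so these shares are no separate measure. In weaker intronic peaks of the pooled list, below the reproducible set, the share with the hexamer was 32.7% of 532 peaks down to a signal of 35, 18.8% of 722 down to 28, and 14.8% of the rest. GC content moved with it, at a median of 45.5% in the reproducible set and 38.5, 37 and 35.5% in the classes below it, and the part of GC content in the difference was not tested beyond the 16.4% above. The hexamer occurred in 63.1% (51.9 to 73.4%) of the peaks in windows of alternative starts and in 63.2% (55.6 to 70.4%) of the others, less apart than either interval is wide.

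The nuclear receptor half-site AGGTCA was found in 15 of the 258 windows (5.81%, 3.29 to 9.41%) and in 4.40% of eligible intron windows, a share inside the interval. This reading depends on the window: in 300 bp the half-site was found in 28 (10.9%, 7.33 to 15.3%), above the 6.48% of intron windows and 6.41% of promoter peaks, and in 100 bp in 3 (1.16%, 0.240 to 3.36%), with 2.18% of intron windows inside the interval. Of the other 13 motifs sought in the same way, CACGTG occurred in 8.91% (5.74 to 13.1%) against 2.76% of intron windows, GTAAACA, the letters of forkhead factors, in 6.20% (3.59 to 9.88%) against 1.90%, and GGGCGG in 10.5% (7.01 to 14.9%) against 3.64%. Promoter peaks had 4.67, 4.12 and 11.2% of these, the last 2 inside the intervals of the intronic peaks. In 100 bp GTAAACA was found in 1.94% (0.632 to 4.46%), and the 0.943% of intron windows was inside that interval. CACGTG was found there in 3.88% (1.87 to 7.01%), an interval that holds the 2.66% of promoter peaks. In 200 bp TGACGT occurred in 8.91% (5.74 to 13.1%) against 5.18% of intron windows, and GGTGTGA in 3.10% (1.35 to 6.02%) against 1.15%. TTCGCGC occurred in 3.49% (1.61 to 6.52%) against 1.60%, just outside the interval. Promoter peaks had 8.61, 0.641 and 7.23% of these. In 100 bp the intron share was inside the interval for TGACGT and GGTGTGA. Letters rich in A and T were scarcer than in introns at large: TAATTA was found in 1.55% against 9.98%, TATAAA in 6.59% against 22.6%, and a tract of 8 T in 9.69% against 35.1%. TTTCAG, the letters at the end of worm introns, occurred in 8.91% against 38.2%. These shares move with GC content and with the distance from exons, both of which differed as given above, and their part was not tested. A match is a description of the letters and not a bound site.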

How the data were processed

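The authors deposited ce11 peak lists for replicate 1 (21272 peaks), replicate 2 (24201), both pooled (13500) and the reproducible set (2285), chosen by the irreproducible discovery rate, per the deposited notes. Each list gives a signal per peak, whose scale no source used here states, and a −log10 q value, as deposited by the authors and not used further. Aligner, peak caller and versions: not given in the sources used here. Of the intronic peaks 255 are 380 bp wide with the summit at the centre. The ce10 lists were not used.

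Summits were placed on the Ensembl annotation (release 115) and the RefSeq ce11 genome with Python 3.11.15, NumPy 2.4.6, pandas 2.3.3 and SciPy 1.17.1. Of several introns the shortest was taken, and 2 summits lay in 2 hosts. Overlap means at least 1 bp with the 2285 strongest peaks of a replicate. Shares carry exact (Clopper-Pearson) and medians exact order-statistic 95% intervals. With 1 group no test was run, and shares were set against all eligible bases, windows or genes. The rule and the motif search were tested on simulated positions. Alternatives changed the promoter window, peak set, replicate, summit, intron, start definition, overlap and sequence window.

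The peaks, 12 gene lists and 15 motifs were chosen with earlier results of these data known. Named genes are hosts of the 20 strongest and 3 weakest peaks, of most peaks, of the 5 strongest at alternative starts, of the 3 longest introns, of the 2 strongest per list and of 5 peaks in neither replicate's strongest, with nhr-77 and unc-119. Genes at the rule's edge and further list members were named after their values were seen.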

Additional observations from a re-analysis of the deposited data

How the results depend on the processing

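Of 98 values recomputed under 18 alternatives, 78 stayed within 1.5 times the count given or inside the 95% interval of the share or median given, and 20 did not. Without either replicate (the strongest peaks of the other alone), all values stayed inside: 255 to 289 peaks, 13.8 to 15.4% of autosomal peaks, 41 to 42% in first introns, a median intron of 3127 to 3345 bp, 30.2 to 30.4% at alternative starts, 13.5 to 16.1% of hosts with a promoter peak, a GC content of 44.5 to 45% and the hexamer in 59.5 to 63.5%. With the stronger part of the reproducible set, 120 peaks were left, with a median signal of 126, a median intron of 4906 bp, a promoter peak in 11.1% of hosts, replicate overlaps of 99.2 and 98.3%, a GC content of 47% and the hexamer in 73.3%. A narrow promoter window gave a promoter peak in 10.2% of hosts, and a wide one 12.3% of autosomal peaks. With promoters of all transcript starts, 174 peaks (9.33%) were left, by construction 0% at alternative starts. Alternative starts took 20.5% with a narrow window and 47.3% with starts of any gene class. The relaxed replicate lists overlapped 100% and 99.6%. The GC content was 44.3% in 300 bp, and the hexamer share 45.7% in 100 bp. Of 3 alternatives chosen after seeing the data, 1 peak per host gave a median intron of 2664.5 bp, and peaks overlapped in both replicates a median signal of 105. The cause of these shifts was not tested beyond what each alternative leaves out. Depth is unknown, and with 2 replicates of 1 group no spread between conditions can be had. No paired analysis was possible because there is 1 group and no test.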
